A study of Mus musculus with 18 samples.

Results

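Hormone-sensing (HS) cells are the mature luminal cells of the mammary duct, and the cells described here came from the glands of adult virgin FVB/NJ mice of 10 weeks. They were chosen by the measured counts themselves: a cell had 500 or more genes, under 20% of its unique molecular identifiers (UMIs, one per captured RNA molecule) from mitochondrial genes, more Krt8 and Krt18 than Krt5 and Krt14 UMIs, and at least 3 UMIs of Prlr, Cited1, Areg, Pgr and Esr1 together, with that sum above the sum of Kit, Elf5, Aldh1a3, Cd14 and Plet1. Of 133710 cells kept in the 18 libraries of the series, 19944 belonged to the 3 adult FVB/NJ libraries, and 6622 of these passed the gate for HS cells: 3714 in library A10, 1114 in P7 and 1794 in D12. The series profiled mouse mammary epithelium by droplet single-cell RNA sequencing from the embryo to post-involution. The 3 libraries shared strain, stage and age, the labels name no transgene or treatment, and the cells were sorted as CD24-positive after depletion of cells with the blood and endothelial antigens Ter119, CD45 and CD31. Each library was made from pooled mice that were not staged for estrus. The spread between libraries is therefore not that between single mice, and it also holds technical differences between the libraries.

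HS cells carry the receptors for estrogen and progesterone, which most other cells of the mammary epithelium do not. They also carry the prolactin receptor, which is not confined to them. Estrogen and progesterone are sensed by HS cells and relayed to neighbouring luminal progenitor (LP) and basal cells by secreted signals. Among these signals are amphiregulin (Areg), Wnt4, RANK ligand (Tnfsf11) and calcitonin (Calca). FOXA1 and GATA3 are transcription factors that act with the estrogen receptor in this lineage.

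The libraries differed before any gene was compared. HS cells had a median of 7238, 3413 and 8342 UMIs in A10, P7 and D12, the order in which 3 values are given throughout. P7 stood apart: its barcodes had 14 bases rather than 16, its library total was 9920346 UMIs against 69643560 and 34121281, and mitochondrial genes held 0.496% of its HS UMIs against 4.06% and 3.3%. A10 and D12 shared 11 barcodes among their HS cells. The shorter barcodes of P7 could match neither, so its overlap was not measured. Scrublet called 6, 1.89 and 3.9% of HS cells doublets, which were kept in the values below and left out in an alternative. HS cells made up 33.6, 33.7 and 32.1% of kept cells, a mean of 33.1% ± 0.897 (SD, n = 3), or 32.9% without P7.

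The genes of the gate describe how the class was built and give no test. Levels are given in CPM, the UMIs of a gene summed over the cells of a class in a library and scaled to the same total in each. Prlr, the prolactin receptor, stood at 2125, 1863 and 2570.1 CPM in HS cells and at 140, 285 and 216 CPM in LP cells. In HS cells Areg stood at 2669.7, 3086 and 1429.8 CPM and Cited1, a transcriptional coactivator, at 662, 1341 and 634 CPM. Pgr, the progesterone receptor, reached 166, 60.5 and 115 CPM and Esr1, estrogen receptor alpha, 44.9, 30.1 and 48 CPM. With every cell thinned to 1500 UMIs, so that depth was equal, 90.2, 91.1 and 94.4% of HS cells held a Prlr UMI but only 22.2, 8.61 and 16.9% a Pgr UMI and 7.22, 4.55 and 8.08% an Esr1 UMI. A UMI of Pgr was found in 23.6, 6.52 and 26.1% of the cells with an Esr1 UMI and in 22.1, 8.71 and 16.1% of those without one. Few cells therefore showed both receptors at this depth, 1.7, 0.297 and 2.11%, which says nothing of cells whose few transcripts were not captured.

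Most members lay far from the limit. Cells with exactly 3 gate UMIs numbered 27, 31 and 32, and otherwise like cells with 2 numbered 70, 14 and 34, against 3530, 849 and 1704 cells with 10 or more. Foxa1, the HS marker that the gate did not use, stood at 21.3, 18 and 5.78 CPM just inside the limit, 1.95, 42.8 and 0 CPM just outside it and 133, 61.3 and 117 CPM in cells with 10 or more. The values at the limit rest on very few Foxa1 UMIs, and no order is read from them.

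Foxa1 went with the label of the class in every library. It was at 132, 63.8 and 114 CPM in HS cells, 6.03, 11.8 and 14.5 CPM in LP cells and 2.61, 1.59 and 10 CPM in basal cells, 9.57-fold and 21.8-fold above them by the means. LP and basal cells were set by mirrored gates on Kit, Elf5, Aldh1a3, Cd14 and Plet1 or on Krt5 and Krt14. Sums of marker lists describe the other cells that the class could hold, and the gates had used Krt5 and Krt14 of the basal list and 5 of the LP list. The 10 basal markers summed to between 437 and 1677 CPM in HS cells against 14885 to 43383 in basal cells, 10 LP markers to 1459 to 2169.6 CPM against 17444 to 64161 in LP cells, and 6 immune markers to at most 1.41 CPM with Ptprc at 0. Fibroblast markers summed to 120.2, 1170.5 and 65.2 CPM in HS cells, and in P7 this was above LP and basal cells (191 and 327 CPM). Most of the sum in HS cells was Dcn, at 103, 1163 and 44.5 CPM. Erythroid markers summed to 24.4 to 66.4 CPM in HS cells and to at most 3.98 CPM in LP and 3.68 CPM in basal cells.

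Among luminal transcription factors, several were higher in HS cells and a few lower. Tbx3, a T-box factor, was at 44.6, 22.9 and 85.2 CPM against 3.31, 4.3 and 16.3 in LP cells, Myb at 22.9, 35.4 and 21.4 CPM against 1.86, 6.09 and 3.29, and Spdef, an ETS factor, at 5.16, 10.7 and 9.97 CPM against 0.986, 0.358 and 2.42. Gata3 was 1.97-fold higher than in LP cells by the means and Batf, of the AP-1 family, 4-fold. Tfap2c, Ehf and the Notch target Hey1 lay the other way: Hey1 was at 5.43, 5.48 and 10.1 CPM in HS cells and 89.5, 168 and 121 CPM in LP cells. In all, 6 of 16 factors were above LP cells in every pairing of libraries and 3 were below. Over all 12681 genes measured against LP cells 13.3% were above and 9.37% below in this way. Against basal cells 7 of 16 were above and 4 below, where the shares over 13103 genes were 15% and 18.6%. Because the gate chose the cells on this contrast, these counts and those of the lists that follow describe the class and carry no test.

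Steroid and vitamin receptors outside the gate were not all high. The glucocorticoid receptor Nr3c1 was at 12, 5.73 and 10.5 CPM in HS cells against 33.9, 24.7 and 27.9 in LP and 52.2, 39.8 and 31.3 in basal cells, so HS cells were lowest in each library. The vitamin D receptor Vdr was likewise lowest, at 18.9, 9.22 and 13 CPM against 108, 67.7 and 55.4 and 62.3, 66.5 and 47 CPM. Rara, the retinoic acid receptor alpha, was higher in HS cells at 23.2, 26.7 and 17.5 CPM against 13.3, 14.3 and 11.6 in LP cells. Nrip1, a nuclear receptor corepressor, at 325, 173 and 313 CPM, overlapped both other classes over the 3 libraries but was highest in HS cells within each. Of 15 nuclear receptors and cofactors measured, 4 were above, 3 below and 8 overlapped LP cells, where 13.3% of all genes were above and 9.37% below. Of the 4 above, 3 were the gate genes Esr1, Pgr and Cited1. Rara, the other 1, is no more than the 13.3% over all genes would give.

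Downstream of the prolactin receptor sit the kinase JAK2 and the transcription factor STAT5, and genes of both were higher in HS cells. Jak2 was at 27.5, 11.5 and 18.8 CPM against 8.7, 5.37 and 6.58 in LP and 8.93, 6.77 and 6.71 in basal cells. Stat5a was at 85.7, 82.7 and 62.6 CPM against 40.5, 32.2 and 26.7 and 27.7, 18.7 and 40.7 CPM. Stat5b overlapped LP cells at 18, 19.9 and 15.6 CPM. The feedback inhibitors split: Socs2 at 60, 68 and 45.9 CPM was above LP but not basal cells, and Cish at 51.5, 29.9 and 36 CPM overlapped both. Of the 10 genes of the pathway, Prlr of the gate included, 5 were above, 1 below and 4 overlapped LP cells, against 13.3% above and 9.37% below over all genes.

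**Figure D1:**
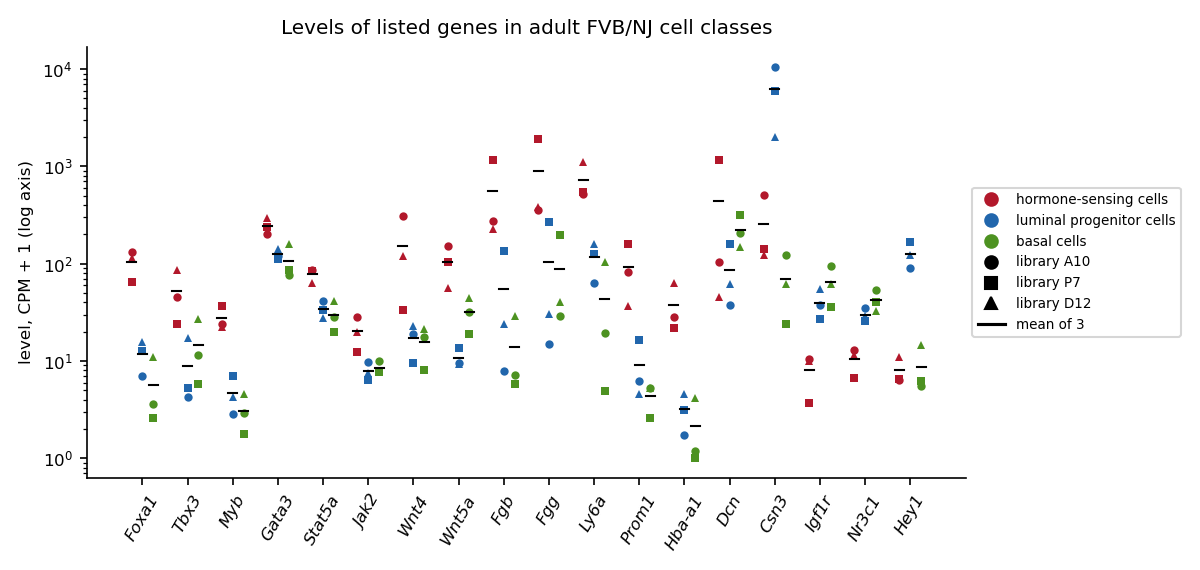
Levels (CPM plus 1, log axis) of 18 listed genes in HS, LP and basal cells. Each symbol is 1 library and each bar the mean of 3. Foxa1, Myb, Stat5a, Fgb, Ly6a and Hba-a1 of HS cells lie above both other classes in every library, and Nr3c1 and Igf1r lie below.

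Of 15 secreted signals measured, 4 were above LP cells, the gate gene Areg among them, 2 were below and 9 overlapped, where 13.3% of all genes were above and 9.37% below. Wnt4, a Wnt ligand downstream of progesterone, was at 308, 32.1 and 118 CPM, and 38.1, 4.55 and 17.6% of HS cells held a UMI of it at equal depth against 2.23, 1.12 and 3.66% of LP cells. Wnt5a was at 150.1, 104 and 55 CPM against 8.64, 12.5 and 8.31 in LP cells. Tnfsf11, RANK ligand, was at 0.688, 16.7 and 0.805 CPM, so that 67 of its 100 HS UMIs came from P7. Calca went another way, with 1 UMI in the 3714 HS cells of A10, 62 in P7 and 404 in D12 (0.0344, 15.4 and 25 CPM). Inhba, an activin subunit, was at 45.4, 11.5 and 2.72 CPM and its antagonist follistatin, Fst, at 188, 20.9 and 22.3 CPM, both highest in A10. For Fst, HS cells were below basal cells, which stood at 844, 309 and 309 CPM, also highest in A10. Wnt7b, at 24.6, 34.9 and 25.1 CPM, and Inhbb, another activin subunit, at 28, 39.4 and 37.5 CPM were closer between pools. Ihh and Igf2 had no UMI in any HS cell. The libraries were single pools, and the labels give no date of preparation. Pool, depth, preparation and, for P7 with its shorter barcodes, library chemistry cannot be told apart as sources of these differences.

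Receptors for such signals included several that were lower in HS cells than in their neighbours. Tnfrsf11a, the receptor RANK, was at 2.1, 1.25 and 1.61 CPM against 17.7, 11.1 and 4.85 in LP and 24.1, 21.9 and 13.7 in basal cells. Egfr, which binds amphiregulin, was at 2.65, 0.996 and 3.1 CPM against 11, 13.6 and 16.4 and 24.1, 30.2 and 22.6 CPM. Igf1r was at 9.49, 2.74 and 8.98 CPM against 36.6, 25.8 and 53.5 in LP cells, and Lgr6, a receptor of R-spondins, at 6.77, 0.996 and 5.69 against 36, 17.2 and 33.6. Of the EGFR family, Erbb2 was higher, at 18.2, 24.9 and 21.5 CPM against 7.07, 12.2 and 9.18. Erbb3, at 60.9, 25.2 and 48.2 CPM against 31.5, 19.7 and 32.4 in LP cells, was higher within each library but overlapped LP cells over the 3. The Wnt receptors Fzd4 and Fzd6 were higher too, Fzd4 at 9.42, 11.5 and 8.48 against 1.39, 2.51 and 0.866 CPM. Of 18 receptors measured 3 were above, 8 below and 7 overlapped LP cells, where 13.3% of all genes were above and 9.37% below.

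The genes that led HS cells over all other cells were picked in A10 alone and then read in P7 and D12. The 20 with the highest ratio of CPM (5 added to both sides) and at least 50 CPM, gate genes left out, were led by Cxcl15, a chemokine, Stc2, a stanniocalcin, and Upk3a, a uroplakin. Their median log2 ratio was 4.40 in A10, where they were chosen, 3.66 in P7 and 3.13 in D12. In each library 20 of 20 were higher in HS cells than in all other cells pooled, which the choice fixed in A10. Cxcl15, Stc2, AW112010, Fam25c, Gpx3, Crym and Tph1 were not clear of every other single class over P7 and D12. Cxcl15 was at 369.7, 982 and 190.0 CPM in HS cells, Ly6d, a surface antigen, at 2842, 3178 and 3643 CPM and the secreted Wfdc2 at 1395, 1097 and 2532 CPM. Stc2 was at 1061, 3013 and 232 CPM, highest in P7 and lowest in D12. Gpx3, the extracellular glutathione peroxidase, was at 2393, 11079.8 and 1529.5 CPM in HS cells, and Cdo1, cysteine dioxygenase, at 271, 1386 and 406 CPM. Tph1, the first enzyme of serotonin synthesis, was at 168, 1033 and 44.7 CPM and was found in 18.3, 36.6 and 4.04% of HS cells at equal depth against 0.732, 4.62 and 0.569% of LP cells. The remaining genes were AW112010, Fam25c, Fgb, R3hdml, Tmem56, Gipc2, Crym, Sprr1a, 9530014B07Rik, Krt6a, Foxa1 and Tspan1.

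Of 9 surface antigens used to sort mammary cells, 3 were above LP cells, 3 below and 3 overlapped them (13.3% and 9.37% of all genes). Ly6a, the antigen Sca1, was at 514, 539 and 1116 CPM against 62, 126 and 159 in LP cells, and 41, 37.2 and 65.5% of HS cells held a UMI of it at equal depth. In the cells outside the luminal and basal gates it was at 524, 719.6 and 279 CPM, above HS cells in A10 and P7. Prom1, CD133, was at 80.6, 158 and 35.9 CPM against 5.28, 15.4 and 3.64. Cd24a, the antigen of the sort, was 2.23-fold above LP and 3.24-fold above basal cells. Itgb3 and Cd55 were lower than in LP cells, Cd55 at 9.25, 32.9 and 11 against 35.5, 102 and 37.4 CPM. Epcam overlapped LP cells over the libraries but was lower in HS cells within each. Of 9 luminal keratins, claudins and cadherin, Krt7 alone was above LP cells without overlap, near the 13.3% of all genes, and all 9 were above basal cells (15% of all genes). Within each library Krt19, Cldn4, Cldn8 and the gate genes Krt8 and Krt18 were also higher in HS than in LP cells. Cldn3 and Cldn7 were lower within each.

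Fibrinogen is a hexamer of 3 kinds of chain made in the liver. Fgb was at 274, 1172 and 227 CPM against 6.9, 134 and 23 in LP cells and Fgg at 352, 1925 and 386 CPM against 14, 267 and 29.6, so that the ratio was smaller in P7 and D12 than in A10, whereas Fga had 0 UMIs in all 3 libraries. At equal depth a Fgb UMI was found in 18.2, 22.9 and 16.6% of HS cells, 0.732, 4.34 and 3.9% of LP cells and 1.07, 0.346 and 3.47% of basal cells.

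Hba-a1, an alpha globin, was at 27.1, 20.7 and 62.6 CPM in HS cells against 0.754, 2.15 and 3.64 in LP and 0.186, 0 and 3.22 in basal cells. It was spread over 448, 60 and 342 HS cells, with at most 13, 4 and 31 UMIs in 1 cell. At equal depth 3.74, 2.77 and 6.94% of HS cells held a UMI against 0.116, 0 and 0.65% of LP cells. The beta globins that red cells make in step with it, Hbb-bs and Hbb-bt, had 1 UMI each over all 6622 cells. Alas2, the heme synthesis enzyme of red cells, had 45 UMIs in HS cells, 2 in LP and 3 in basal cells. Hba-a1 and Hba-a2 are near-identical copies whose reads may be split, and Hba-a2 was at 2.27, 1.99 and 3.03 CPM.

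Dcn, the matrix proteoglycan decorin, was at 103, 1163 and 44.5 CPM in HS cells and overlapped both other classes over the 3 libraries. In P7 354 of 1114 HS cells held a Dcn UMI, and HS cells there exceeded both other classes (158 CPM in LP and 317 CPM in basal cells). In A10 and D12 basal cells were higher. The collagens that fibroblasts make with it were near 0 in HS cells of P7, Col1a1 at 0.498, Col1a2 at 1.99 and Col3a1 at 1.25 CPM, and Pdgfra had no UMI. Lum, the other fibroblast marker listed, was low there too, at 3.49 CPM, but above LP (2.51 CPM) and basal cells (0.398 CPM).

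Other pathways were read from whole lists, against the 13.3% of all genes above and 9.37% below LP cells. Of 13 measured genes of the Notch pathway, which drives LP cells, 0 were above LP cells and 5 below: the receptor Notch1 at 22.1, 13.7 and 15.8 against 49.5, 36.5 and 50.9 CPM, the targets Hey1, Hey2 and Heyl, and the feedback regulator Nrarp. Of 21 genes of interferon response and antigen presentation, 3 (Stat2, Psmb9 and B2m) were above and 1 (Ifit1) below, shares near those of all genes, with B2m, the light chain of class I histocompatibility molecules, at 923, 1189 and 994 against 417, 522 and 402 CPM. Of 16 immediate early and heat shock genes 4 were below, Fosl1, Jund, Egr1 and Ier3. Of 13 measured genes of kynurenine, histamine and polyamine metabolism and its targets, Aoc1 and Ido1 overlapped LP cells over the 3 libraries although they were higher in HS cells within each. Afmid and Amd1, of kynurenine and polyamine synthesis, were above, and Smox and Cyp1b1 were below.

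Cycling cells were part of the class, mostly in 1 library. Cells with 2 or more UMIs of 15 cell cycle genes among 1500 made up 7.14% (6.33% to 8.03%) of HS cells in A10, 0.891% (0.408% to 1.68%) in P7 and 1.37% (0.877% to 2.03%) in D12, with exact 95% binomial intervals that cover counting error only. In A10 the LP share was 5.93% (5.05% to 6.91%) and the basal share 6.18% (5.36% to 7.07%), so HS, LP and basal cells were each highest in that library. Over the list, 0 of 15 genes were clear of LP cells in either direction. The inhibitors Cdkn2a and Cdkn2b were low but above LP cells, Cdkn2a at 5.19, 3.99 and 0.867 against 0.232, 0.358 and 0 CPM, and Cdkn1a was below them at 213, 145 and 194 against 329.5, 533 and 332 CPM.

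A subset of HS cells expressed Aoc1 or Ido1. AOC1 is diamine oxidase, which degrades histamine and putrescine, and IDO1 catalyses the first and rate-limiting step from tryptophan to kynurenine. Aoc1 (ENSMUSG00000029811) was at 84.3, 287 and 17.6 CPM and Ido1 (ENSMUSG00000031551) at 16.9, 362 and 124 CPM in HS cells. The 2 genes changed places between pools: Aoc1 was found in 8.54, 13.5 and 2.33% of HS cells at equal depth and Ido1 in 2.31, 12.7 and 14%. Cells with a UMI of either made up 10.3% (9.33% to 11.3%) of A10, 22.1% (19.6% to 24.8%) of P7 and 15.9% (14.3% to 17.7%) of D12, a mean of 16.1% ± 5.89 (SD, n = 3), or 13.1% without P7. On all counts, not thinned, they were 24.3, 27.4 and 38.7%.

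Other classes gave the background. At equal depth 0.501, 3.5 and 1.3% of LP cells and 0.221, 0.346 and 0.594% of basal cells held a UMI of either gene. The LP share was highest in P7, where LP cells had a median of 3063 UMIs, and the HS share lay above it in all 3 libraries. Of the positive HS cells, 254 of 375 in A10, 82 of 223 in P7 and 201 of 280 in D12 rested on a single UMI after thinning.

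**Figure D2:**
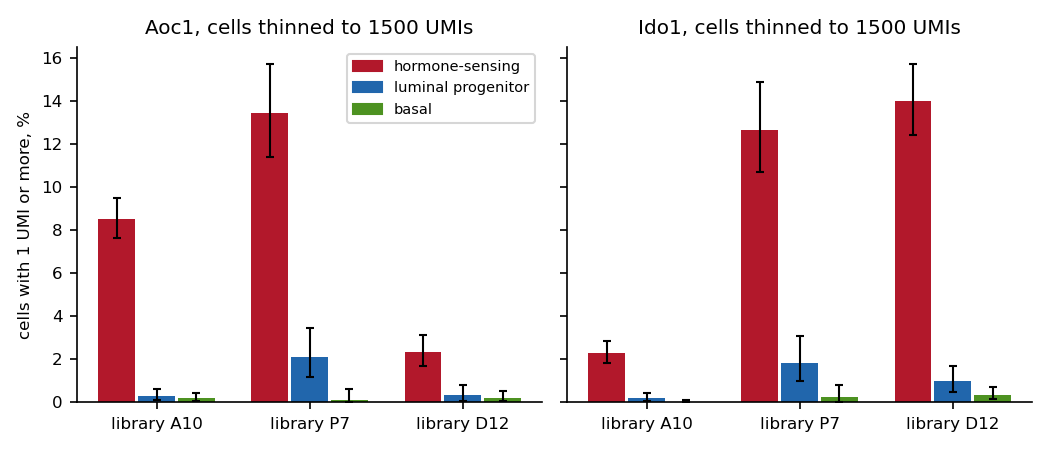
Share of cells with a UMI of Aoc1 (left) or Ido1 (right) after thinning to 1500 UMIs, by library and class, with exact 95% binomial intervals. Aoc1 is at 8.54% in A10 and 2.33% in D12, Ido1 at 2.31% and 14%, and P7 is high for both.

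Whether Aoc1 and Ido1 occurred in the same cells was read within each pool. In A10 23.8% of Ido1-positive cells also held Aoc1 against 8.18% of Ido1-negative cells, an odds ratio of 3.51 (1.98 to 5.97). In P7 the shares were 32% and 10.8%, an odds ratio of 3.9 (2.47 to 6.09). In D12 they were 2.85% and 2.25%, with 7 cells positive for both and an odds ratio of 1.27 (0.47 to 2.96). Cells of a library are not replicates, so these values and intervals, which cover counting error only, carry no test. Other enzymes on either side ranged from absent to abundant in HS cells. Of tryptophan and histamine metabolism, Kmo and Haao had no UMI, Ido2, Tdo2 and Kynu had 14, 3 and 39, and Hdc, which makes histamine, had 10, but the aminotransferase Kyat1 had 653. Of polyamine metabolism, Odc1, which makes putrescine, was at 102, 62 and 59.2 CPM and Sat1, which acetylates polyamines, at 169, 249 and 164 CPM.

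Positive cells (375, 223 and 280) were then compared with negative cells of the class (3266, 787 and 1477), with counts summed per library and arm and the library as a block. On all counts 903, 305 and 694 cells were positive. The negative arms of A10 and D12 therefore included cells with UMIs of either gene that thinning left out. In edgeR's quasi-likelihood test 49 of 9711 genes were higher in positive cells and 36 lower, which is 0.505% and 0.371% of the genes tested, Aoc1 and Ido1 left out because they set the arms. Of these 46 and 32 moved the same way in all 3 libraries. Without TMM scaling the split was 57 higher and 66 lower. Depth was alike in the arms, with medians of 6951 and 7353 UMIs in A10, 3960 and 3507 in P7 and 8458 and 8426 in D12. Without A10 21 genes were called, without P7 308 and without D12 167, and 8 of the 49 and 5 of the 36 stayed called without A10. Another random draw of the thinning that sets the arms called 85 higher and 85 lower, 44 and 34 of them shared with the first draw.

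Single genes among the 49 are given first, and no list of their functions was tested. Fxyd2, a regulatory subunit of the sodium pump, was at 62.3, 178 and 931 CPM in positive cells against 30.4, 93.2 and 453 CPM in negative cells and higher in each library by a like factor (log2 difference 1.03 ± 0.08 (SE), edgeR adjusted p = 1.41e-05). Glul, glutamine synthetase, was at 1428, 9805 and 1745 CPM in positive cells against 765, 3906 and 1276 CPM in negative cells (log2 difference 0.92 ± 0.12 (SE), edgeR adjusted p = 0.00287). Slc5a6, the multivitamin transporter, was at 51.8, 464 and 83.8 CPM in positive cells against 30.2, 179 and 60.4 CPM in negative cells (log2 difference 0.92 ± 0.14 (SE), edgeR adjusted p = 0.00634). The 3 genes kept their call in 18 of 19 alternative settings or selections each, the fit without the block being the exception.

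Slc5a5, the sodium iodide symporter, rose too, with 221, 307 and 96.3 CPM in positive cells against 136, 137 and 76 CPM in negative cells (log2 difference 0.75 ± 0.12 (SE), edgeR adjusted p = 0.00898). Gpx3 had 3838, 16684 and 1654 CPM in positive cells against 2237, 9239 and 1508 CPM in negative cells (log2 difference 0.62 ± 0.11 (SE), edgeR adjusted p = 0.0165), so the difference was smallest in D12. At equal depth 90.9, 96 and 72.1% of positive and 79.9, 91.4 and 74.3% of negative cells held a Gpx3 UMI, D12 going the other way. Scnn1b, a subunit of the epithelial sodium channel, rose by 1.04 ± 0.18 on the log2 scale and Slc12a2, a sodium, potassium and chloride cotransporter, by 0.39 ± 0.08 (edgeR adjusted p = 0.0152 and 0.0322). Lower-level genes past the same threshold were Tmem86a, a lysoplasmalogenase (1.26 ± 0.20), Ptpn5, a tyrosine phosphatase (1.15 ± 0.24), Pcp4, a calmodulin binder (1.27 ± 0.23), Dpep2, a dipeptidase (1.09 ± 0.20), Alox15, a lipoxygenase (1.07 ± 0.22), Gm7932 (1.97 ± 0.38) and 5430419D17Rik (1.04 ± 0.22). Without A10 none of the genes in this paragraph was called, without D12 Alox15 and 5430419D17Rik were not, and without P7 Gm7932 was not.

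Ctsr, cathepsin R of the placental cathepsin family, had the largest rise of the 49 genes, with 51.4, 546 and 9.36 CPM in positive cells against 7.05, 67 and 0 CPM in negative cells (log2 difference 3.12 ± 0.23 (SE), edgeR adjusted p = 1.25e-05). Its counts sat in very few cells: 71 of 3714, 42 of 1114 and 2 of 1794 HS cells held any, and 10 cells held 63.8, 83.7 and 100% of the UMIs. The share of cells with a Ctsr UMI at equal depth was 1.33, 5.83 and 0.357% in positive and 0.857, 2.16 and 0% in negative cells. Ctsr belongs to a family of similar genes whose reads can be misassigned, so its value is uncertain.

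A pair of the surface antigens was higher in positive cells. Ly6a was at 681, 690.4 and 1316 CPM in positive cells against 496, 487 and 1077 CPM in negative cells (log2 difference 0.44 ± 0.07 (SE), edgeR adjusted p = 0.0113), Cd24a changed by 0.48 ± 0.08 and Krt7 by 0.41 ± 0.09 (edgeR adjusted p = 0.0134 and 0.0416). Of 8 sorting antigens tested 2 were higher (0.505% of all genes) and 0 lower, with a median log2 difference of 0.21 against -0.01 over all genes. Of the leading genes picked in A10, Cxcl15 (0.49 ± 0.09), Sprr1a (0.73 ± 0.11) and Gpx3 were higher, and Upk3a and Fgb were lower. Without A10 the calls of Ly6a, Cd24a, Krt7, Cxcl15 and Sprr1a were lost, and with arms set on Aoc1 alone or Ido1 alone 0 sorting antigens were called.

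Upk3a had the lowest p of the genes lower in positive cells, with 115, 75.2 and 73.3 CPM in positive cells against 343, 246 and 164 CPM in negative cells (log2 difference -1.44 ± 0.10 (SE), edgeR adjusted p = 1.25e-05), and it kept its call in 18 of 19 alternatives. At equal depth 6.93, 7.17 and 5% of positive and 16.1, 5.97 and 10.2% of negative cells held a UMI of it, so in P7 the shares did not differ in the direction of the levels. There 10 cells held 65.3% of the Upk3a UMIs, against 8.2% in A10 and 25% in D12. Fgb was at 209, 801 and 175 CPM in positive cells against 282, 1284 and 234 CPM in negative cells (log2 difference -0.49 ± 0.08 (SE), edgeR adjusted p = 0.00904), lower in each library. Fst fell with 76.2, 25.1 and 8.19 CPM in positive cells against 200.4, 19 and 24.9 CPM in negative cells (log2 difference -1.17 ± 0.20 (SE), edgeR adjusted p = 0.0143), but P7 went the other way, and the call was lost without A10.

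Genes of the cell cycle were lower in positive cells. Of 15 on the list 12 were tested, 7 were lower (0.371% of all genes) and 0 higher, and the median log2 difference was -1.99 against -0.01 over all genes. Pclaf, which binds the replication clamp, was at 8.75, 0 and 3.12 CPM in positive cells against 65.6, 4.76 and 17.6 CPM in negative cells (log2 difference -2.80 ± 0.22 (SE), edgeR adjusted p = 1.41e-05). Top2a, a topoisomerase of dividing cells, was at 2.19, 1.04 and 3.9 CPM in positive cells against 45.5, 2.04 and 7.16 CPM in negative cells (log2 difference -2.95 ± 0.45 (SE), edgeR adjusted p = 0.0078). The others called were Ube2c (-3.00 ± 0.29), Birc5 (-3.46 ± 0.49), Cdk1 (-2.91 ± 0.40), Ccnb2 (-2.42 ± 0.38) and Tyms (-1.07 ± 0.23), and outside the list Cdca3, Cdc20 and Spc24 fell by 3.61, 1.65 and 2.11 on the log2 scale. Without A10 only Pclaf of these 10 was called, 1 of 11 listed genes tested, with a list median of -0.99, and without P7 15 of 15 were lower. The count was 0 without the library block, 4 of 12 with DESeq2 and 9 of 12 without doublets. With the study's limits on genes, UMIs and mitochondrial share it was 3 of 9, with a list median of -0.95. With thinned counts summed only 1 listed gene could be tested, and 0 were called.

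Counted as cells, 3 of 375 positive cells of A10 were cycling, 0.8% (0.165% to 2.32%), against 7.87% (6.97% to 8.85%) of negative cells. In P7 the shares were 0.448% (0.0114% to 2.47%) and 1.02% (0.44% to 1.99%), and in D12 0.357% (0.00904% to 1.97%) and 1.56% (0.99% to 2.33%). The direction was the same in 3 of 3 libraries, but the positive shares of P7 and D12 rest on 1 cycling cell each. The intervals were apart in A10 alone. Scrublet doublets were 2.93, 2.69 and 3.93% of positive and 6.49, 1.91 and 3.99% of negative cells, P7 going the other way. The fit without doublets called 61 genes higher and 60 lower, sharing 49 and 33 with the fit that kept them. Pclaf kept its call in 17 of 18 alternatives that tested it and Top2a in 11 of 15.

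**Figure D3:**
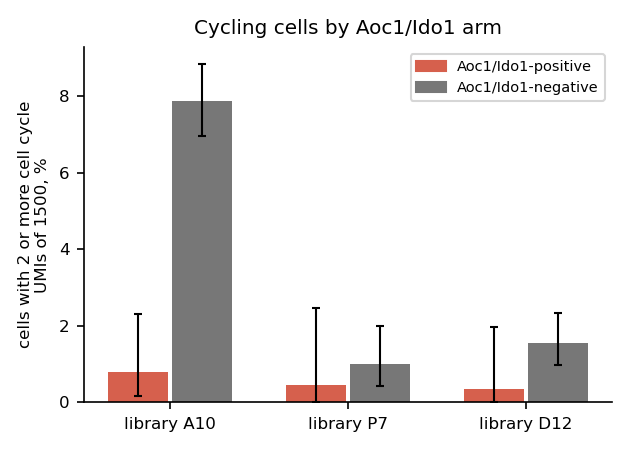
Share of HS cells with 2 or more cell cycle UMIs among 1500, in Aoc1/Ido1-positive and negative cells of each library, with exact 95% binomial intervals. Positive cells are at 0.8% against 7.87% in A10 and below 1% in the other libraries, where negative cells are at 1.02% and 1.56%.

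Among HS markers the gate left only Foxa1 free, and it was not called, at -0.09 ± 0.09 on the log2 scale. The other 5 are gate genes whose sum cells of both arms had to pass, so nothing is read from their values, such as 0.20 ± 0.07 for Prlr and 0.26 ± 0.10 for Areg. Of 15 nuclear receptors and cofactors, the gate genes Esr1, Pgr and Cited1 included, 0 were called, of 10 prolactin pathway genes 0, and of 11 paracrine signals 1, Fst. Of 17 interferon and antigen presentation genes 0 were called, with a median of -0.010 against -0.010 over all genes. The 16 immediate early and heat shock genes gave 0 calls, and 14 of them had a log2 value below 0. Over all genes 0.505% were called higher and 0.371% lower, so 0 calls in lists of these sizes is near that share.

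Markers of other cells were compared between the arms. LP markers summed to 1321 to 1956 CPM in positive and 1452 to 2196 CPM in negative cells, with 0 of 10 called. Basal markers were at 336, 468 and 1387 CPM in positive against 583, 434 and 1729 CPM in negative cells, P7 going the other way, with 10 of 10 fitted log2 values below 0 and Mylk called (-0.82 ± 0.17). Without P7 6 of 10 basal markers were called lower, and without A10 or with DESeq2 0 were. Clec3b (-2.53 ± 0.44) and Igfbp6 (-1.85 ± 0.38), both secreted, and Fmo1, a monooxygenase (-1.79 ± 0.31), were lower too. Fibroblast markers summed to 135, 990.1 and 30.8 CPM in positive against 118, 1254 and 71.8 CPM in negative cells. In the class as a whole Dcn made most of this sum, and only 1 of the 6 markers could be tested and was not called. Endothelial markers summed to 2.19, 3.13 and 0.78 against 4.15, 4.42 and 3.47 CPM. The part of basal, fibroblast or endothelial RNA in these differences was not tested.

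Fewer genes were called when the class was split by Pgr. Cells that passed the gate without their Pgr UMIs were split by a Pgr UMI at equal depth into 807, 86 and 294 positive and 2826, 921 and 1454 negative cells. On all counts 2345, 185 and 955 cells held a Pgr UMI. The negative arms of A10 and D12 therefore included many cells with Pgr UMIs that thinning left out. With the same test 12 of 10632 genes were higher in positive cells and 47 lower, 0.113% and 0.442% of those tested, of which 7 and 29 moved the same way in all 3 libraries. Without TMM scaling the split was 36 higher and 54 lower, and with DESeq2 size factors 30 and 57. DESeq2 with the same block called 1 gene higher and 0 lower, 114 genes having an unadjusted p under 0.05. Without A10 19 genes were called by edgeR, without P7 209 and without D12 35.

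Milk protein genes were lower in Pgr-positive cells. Of 6 tested 5 were lower (0.442% of all genes), with a median of -0.53 against -0.02 over all genes. Csn1s2a, a casein, was at 364, 3.08 and 0 CPM in positive cells against 583, 122 and 0.221 CPM in negative cells (log2 difference -0.87 ± 0.15 (SE), edgeR adjusted p = 0.000839). In D12 it was near 0 in both arms, and P7 had only 86 positive cells. Csn3, also an LP marker, was at 393, 24.7 and 109 CPM in positive cells against 526, 154 and 121 CPM in negative cells (log2 difference -0.48 ± 0.12 (SE), edgeR adjusted p = 0.0378), and Trf, transferrin, changed by -0.37 ± 0.08. The shares of cells with a Csn3 UMI at equal depth were close, 17.8, 3.49 and 10.9% of positive and 17.6, 4.67 and 12% of negative cells. The count depended on the fit and on how the arms were set. With DESeq2 0 of 6 were called. With thinning to 2000 UMIs 0 of 6 were called, and Csn1s1 and Csn2 had the opposite direction. On all counts 1 was called, without doublets 1 and without A10 1 of 4. Scrublet doublets were 3.59, 4.65 and 2.38% of positive and 6.83, 1.85 and 4.33% of negative cells, P7 going the other way. Over the whole lists, milk genes summed to 1708, 46.3 and 757 CPM in positive and 2418, 399 and 700.2 CPM in negative cells, and LP markers to 1783, 1453 and 1563 and 2229, 1783 and 1431 CPM. LP cells hold these RNAs at 9076 to 43286 CPM, and the part of their RNA in this result was not tested.

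Of 14 cell cycle genes tested in this split 4 were lower (0.442% of all genes) and 10 were not called. On the log2 scale Pclaf was at -1.0 ± 0.15, Birc5 at -0.83 ± 0.17 and Ccnb2 at -0.84 ± 0.20. Pclaf and Birc5 turned direction when the arms were set on all counts. Without A10 or without D12 1 listed gene was called, without P7 7 of 15 were lower, and with DESeq2 0 of 14 were called. The share of cycling cells was 5.2% of positive against 7.68% of negative cells in A10. In P7 it was 1.16% (0.0294% to 6.31%) against 0.869%, and in D12 1.7% (0.554% to 3.92%) against 1.24%. These positive shares rest on 1 of 86 and 5 of 294 cells, and no order is read from them. Upk3a was lower here too (log2 difference -0.58 ± 0.11 (SE), edgeR adjusted p = 0.00185), but its direction turned with thinning to 1000 UMIs. Nrxn3, a neurexin (0.39 ± 0.08), Zbtb8a, a zinc finger gene (0.47 ± 0.09), Man1a, a mannosidase (0.34 ± 0.08), and Lce6a (1.91 ± 0.35) were higher in all 3 libraries. None of 14 nuclear receptors and cofactors or 13 paracrine signals was called, with Wnt4 at 0.15 ± 0.09 and Foxa1 at 0.11 ± 0.08.

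Wfdc12, a whey acidic protein family member, had the lowest p of the Pgr split, with 74.5, 77.1 and 14.6 CPM in positive cells against 17.7, 14.9 and 2.58 CPM in negative cells (log2 difference 2.14 ± 0.14 (SE), edgeR adjusted p = 2.9e-15). Only 84, 8 and 18 HS cells held Wfdc12, and 10 cells held 73.4, 100 and 88.9% of its UMIs. The p was fitted to summed counts and takes no account of this. The direction of Wfdc12 turned with thinning to 1000 or 2000 UMIs and with 2 Pgr UMIs required.

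Finally, the spread of each gene among HS cells was measured at equal depth as the variance over the mean of UMIs per cell, which is 1 for counts that vary by sampling alone. Over 2369 genes with a mean of at least 0.05 UMIs in every library the median was 1.04, 1.12 and 1.03 and the 95th percentile 1.65, 1.97 and 1.46. The 15 genes with the highest mean rank were Fos, Csn3, Ptn, Dcn, Malat1, Upk3a, Trf, Ly6d, Gpx3, Acta2, Fgb, Tmsb4x, Jun, Slpi and Areg. Fos and Jun are immediate early genes, and Fos was at 6.8, 12.5 and 5.04. Upk3a was at 3.72, 12.4 and 4.99, Fgb at 3.33, 14.1 and 3.9 and Areg at 4.26, 7.37 and 3.67. Csn3 and Trf mark LP cells and Acta2 basal cells. Among genes of the gate Prlr was at 2.54, 1.65 and 1.89, a spread that the gate itself limits.

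**Figure D4:**
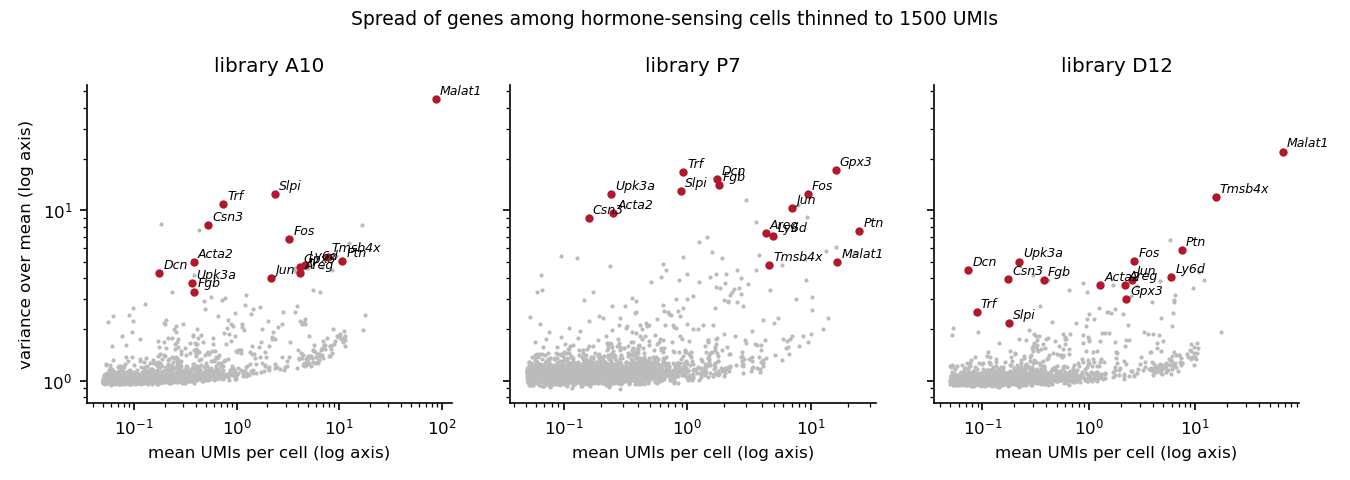
Variance over mean of UMIs per HS cell against the mean, both on log axes, after thinning to 1500 UMIs. Grey points are 2369 genes and red points the 15 with the highest mean rank over the 3 libraries. Malat1 is highest in A10 and D12 at 45 and 22.1 but at 4.95 in P7.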

How the data were processed

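The deposited files hold UMI counts per gene and barcode, made by the authors with Cell Ranger (version 3.1.0 in the submitters' processing notes, 3.0.2 in the file headers of the 3 libraries used here) on mm10, from 10x Chromium 3' libraries sequenced on an Illumina NextSeq. The counts were not normalized. Per the labels, barcodes with at least 500 reads were exported.

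Cells were kept and classed as stated in the report, in Python 3.11.15 (numpy 2.4.6, scipy 1.17.1), and doublets were called with Scrublet in scanpy 1.11.5. LP cells needed at least 3 UMIs of Kit, Elf5, Aldh1a3, Cd14 and Plet1 together and more than of the HS genes, and basal cells at least 3 of Krt5 and Krt14 and more than of Krt8 and Krt18. For shares and for the arms of a split each cell was thinned to 1500 UMIs, drawn at random without replacement, and 73, 104 and 37 shallower HS cells were left out. Full counts of the arms were then summed per library (6 sums) and fitted in edgeR 4.0.16 (R 4.3.3) with the library as a block, TMM scaling and filterByExpr. Calls needed an adjusted p (Benjamini-Hochberg over all genes tested, two-sided) under 0.05. Both arms of a sum pair come from 1 library, which is why the library pairs them. DESeq2 1.42.0, other scalings, thinning depths and filters, and each library left out in turn were the alternatives.

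A gene counted as measured between classes with at least 50 UMIs in both together, and as above or below where the 3 values of each class did not overlap. Genes named in a split are listed genes, leading genes of A10 or up to 12 a direction with the largest change among calls of 1 direction in all 3 libraries. Members and lists were chosen with earlier results of these data known. Intervals cover counting error only. The p-values rest on how much the difference between arms varied over the 3 pools, a spread that edgeR estimates in part from all genes together. For a single gene they are therefore not set by its own 3 pools alone. Fitted to summed counts, the p-values take no account of UMIs that sit in few cells. They do not cover the spread of levels between pools, which the block takes out, or the random draw that set the arms.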

Additional observations from a re-analysis of the deposited data

Results flagged for a closer look

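Aoc1 and Ido1 were also read in cells of the other libraries that passed the same gate, a measurement outside the comparisons above. In 6 libraries their summed level was above that of 3 UMIs, the upper limit of a count of 0, and in the other 9 they had 0 or 1 UMI. Those 9 had only 14 to 476 gate cells. There 3 UMIs stood for 0.448 to 23.4 CPM, so low levels could be missed. Of the 6 the summed level was highest in adult C57BL/6, at 517 CPM. In that library 56.9% of 6144 cells held a UMI of either gene (not thinned) and 16.4% of both. Puberty ducts had 249 CPM and terminal endbuds of the same stage 29.6 CPM. Pre-puberty cells had 12.2 CPM, all of it Ido1. Post-involution cells had 9.26 CPM, and adult SWISS cells 0.679 CPM, with 17 of 3641 cells positive at a median of 9655 UMIs. Each of these groups is a single library, so strain, stage and library cannot be told apart, and no difference between them was tested.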

How the results depend on the processing

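Without the replicate block 0 genes were called in either split by edgeR, with 22 (Aoc1/Ido1) and 6 (Pgr) at an unadjusted p under 0.05. The Aoc1/Ido1 count of 85 became 49 with DESeq2, 290 with no low-count filter, 172 with thinning to 2000 UMIs, 169 with arms on all counts, 170 with another random draw of the thinning, 45 with thinned counts summed, 158 with 2 UMIs required and 37 with Ido1 alone, and ranged from 21 to 308 with a library left out. The Pgr count of 59 became 1 with DESeq2, 90 without TMM, 106 with arms on all counts, 22 with thinned counts summed, 9 with 2 UMIs required, 39 with 5 gate UMIs and 39 with the study's limits on cells, and ranged from 19 to 209. The cause was not tested. Of 667 values of 37 named genes in the Aoc1/Ido1 split under the alternatives, 509 kept their call and direction, 158 lost the call and 0 turned. In the Pgr split 154 of 260 kept it and 8 turned: Wfdc12 to -0.064 (thinning to 1000), -0.20 (2000) and -1.19 (2 UMIs required), Csn1s1 and Csn2 to 0.24 and 0.18 (2000), Upk3a to 0.12 (1000), and Pclaf and Birc5 to 0.091 and 0.13 (all counts). The share of HS cells, 33.1%, became 32.1% with 5 gate UMIs, 31.8% with cells thinned before the gate and 38.4% with at least 1000 genes per cell, and the Aoc1/Ido1-positive share, 16.1%, became 30.1% on all counts. Means of both shares without each library in turn were added after seeing the data.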
